A study of Mus musculus with 4 samples.

Results

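The 7 genes described here, Klf2, Klf3, Klf4, Klf6, Klf7, Klf10 and Klf13, encode Kruppel-like factors and were measured in sorted splenic CD8 T cells of mice given the dioxin TCDD or its solvent DMSO. The probe set that stands for a gene was chosen by its measured level: among the probe sets that the platform annotation maps to that gene alone, it is the one whose mean over the 4 arrays is highest. The 7 genes had 17 such probe sets and are 7 of 12393 genes named in this way. Female C57BL/6 mice aged 8 to 12 weeks received TCDD at 10 µg/kg or DMSO intraperitoneally and were killed after 24 h, 4 mice were treated for a group, and their spleen cells were pooled before CD8 T cells were sorted to a purity above 99%. Each treatment has 2 arrays, numbered 1 and 2 in the sample titles. The labels do not say what the number stands for, nor whether separate pools of mice stand behind the arrays of a treatment. The p-values therefore measure array-to-array spread, which may be technical only. The labels name no genotype beyond the strain, and no untreated group is used here.

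Kruppel-like factors are transcription factors that bind GC-rich and CACCC-type DNA elements through zinc fingers at the C-terminal end of the protein. In T cells, KLF2 maintains quiescence and the expression of receptors for lymphoid homing and egress, and KLF4 restrains the division of CD8 T cells. Several family members are also early-response genes, whose transcripts change quickly when cells are stimulated or handled. TCDD binds the aryl hydrocarbon receptor (AHR), a ligand-activated transcription factor that pairs with ARNT on DNA elements with the core GCGTG.

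The 250 bases before the annotated start are printed for Klf2, Klf4 and Klf6, 3 of the 4 members whose values varied by more than 1 log2 unit over the arrays. The windows are from RefSeq on GRCm38.p6 and read 5′ to 3′ on the strand of the gene, which is plus for Klf2 (chr8:72318812-72319061) and Klf6 (chr13:5861239-5861488) and minus for Klf4 (chr4:55532476-55532725). Capitals mark every match, on either strand, to the AHR element core GCGTG, the KLF element CACCC or the MEF2 element, 4 bases of A or T between CTA and TAG.
Klf2: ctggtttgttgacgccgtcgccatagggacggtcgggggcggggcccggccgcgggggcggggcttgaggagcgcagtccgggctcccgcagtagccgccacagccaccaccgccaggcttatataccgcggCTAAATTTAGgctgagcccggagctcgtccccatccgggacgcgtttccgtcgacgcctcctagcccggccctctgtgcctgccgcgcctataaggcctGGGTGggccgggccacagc
Klf4: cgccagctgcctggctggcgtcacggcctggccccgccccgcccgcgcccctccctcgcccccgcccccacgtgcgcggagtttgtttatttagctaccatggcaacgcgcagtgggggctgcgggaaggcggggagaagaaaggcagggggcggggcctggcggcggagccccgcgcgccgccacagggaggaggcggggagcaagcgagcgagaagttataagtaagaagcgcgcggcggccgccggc
Klf6: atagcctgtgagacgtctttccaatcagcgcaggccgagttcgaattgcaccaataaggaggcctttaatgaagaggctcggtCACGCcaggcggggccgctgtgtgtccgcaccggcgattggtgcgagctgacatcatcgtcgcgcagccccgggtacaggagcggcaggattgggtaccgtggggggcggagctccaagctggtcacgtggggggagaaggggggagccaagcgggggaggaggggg
The Klf2 window holds the MEF2 element from 118 to 109 bases before the start and a KLF element on the opposite strand from 19 to 15 bases before it. MEF2 factors are known activators of Klf2. This element was searched for after the window had been read, and 0.508% of 32851 windows of the same length held it. The Klf6 window holds the AHR core on the opposite strand, from 167 to 163 bases before the start. The Klf4 window held none of the motifs searched. Of the 6 members in the promoter table, 3 (Klf3, Klf6 and Klf13) held the AHR core, against 28.2% of all windows, and 4 held the KLF element, against 52%. The other motifs, TGANTCA of AP-1, TGACGTCA of CREB, 1 fixed form of the serum response element and GTAAACA of FOXO factors, matched 0 of the 6, against 6.75%, 1.55%, 0.0609% and 3.17% of all windows. The member windows were 59.2% to 78.4% G and C, against a median of 52.4% over all windows. The match of a few letters is a description of the sequence and no evidence of binding.

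Across all 22626 probe sets, limma called 0 for TCDD against DMSO at an adjusted p under 0.05 and 439 at an unadjusted p under 0.05, or 1.94%. For number 1 against number 2 it called 1 (0.00442%), that of Rgs1, and 1688 at an unadjusted p under 0.05, or 7.46%. The Rgs1 call was lost with treatment as a term (adjusted p = 0.4779), and 0 probe sets were called with any 1 of the 4 arrays left out. Array medians lay between 5.97 and 6.03. All 10 measured genes of the CD8 T cell marker list, Cd8a, Cd8b1 and the CD3 genes among them, had mean levels above the median of 6.01. Values are log2 with no true zero, and in sorted bulk cells a change in the share of a cell subset cannot be told apart from a change in RNA per cell.

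Klf2 was the only member whose main probe set was lower in the TCDD arrays than in either DMSO array. It measured 9.90 and 9.48 in TCDD replicates 1 and 2 and 11.32 and 10.40 in DMSO replicates 1 and 2 on the log2 scale. The groups did not overlap, and DMSO replicate 1 was the highest array and TCDD replicate 2 the lowest. The TCDD arrays averaged 9.69 ± 0.297 (SD, n = 2) and the DMSO arrays 10.86 ± 0.651 (SD, n = 2). The difference of −1.17 corresponds to a 2.25-fold lower signal, with 95% limits of −2.07 and −0.27. It did not pass the limma test across all probe sets (unadjusted p = 0.02071, adjusted p = 0.9973). Within title number 1 the difference was −1.42 and within number 2 it was −0.92. Of 12393 genes, 15 were at least 1 log2 unit lower after TCDD, which is 0.121%, and Klf2 ranked 11th among all genes by the size of its lower signal. Without DMSO replicate 1, and so with an unequal mix of the numbers, the difference was −0.71. Klf2 has 1 probe set here, so no second one can be set beside it.

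Klf4, Klf6 and Klf10 had larger differences between title numbers than between treatments. Each was higher in both arrays numbered 1 than in both arrays numbered 2, by more than 2 log2 units. That was 3 of the 7 members, against 14% of all genes for higher arrays numbered 1, 36.4% for separate arrays in either direction and 0.137% for a difference of that size. The 3 are thus among the 17 genes that differed by more than 2 in this direction. The members were chosen with earlier results of these data known, so these shares are a description.

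**Figure D1:**
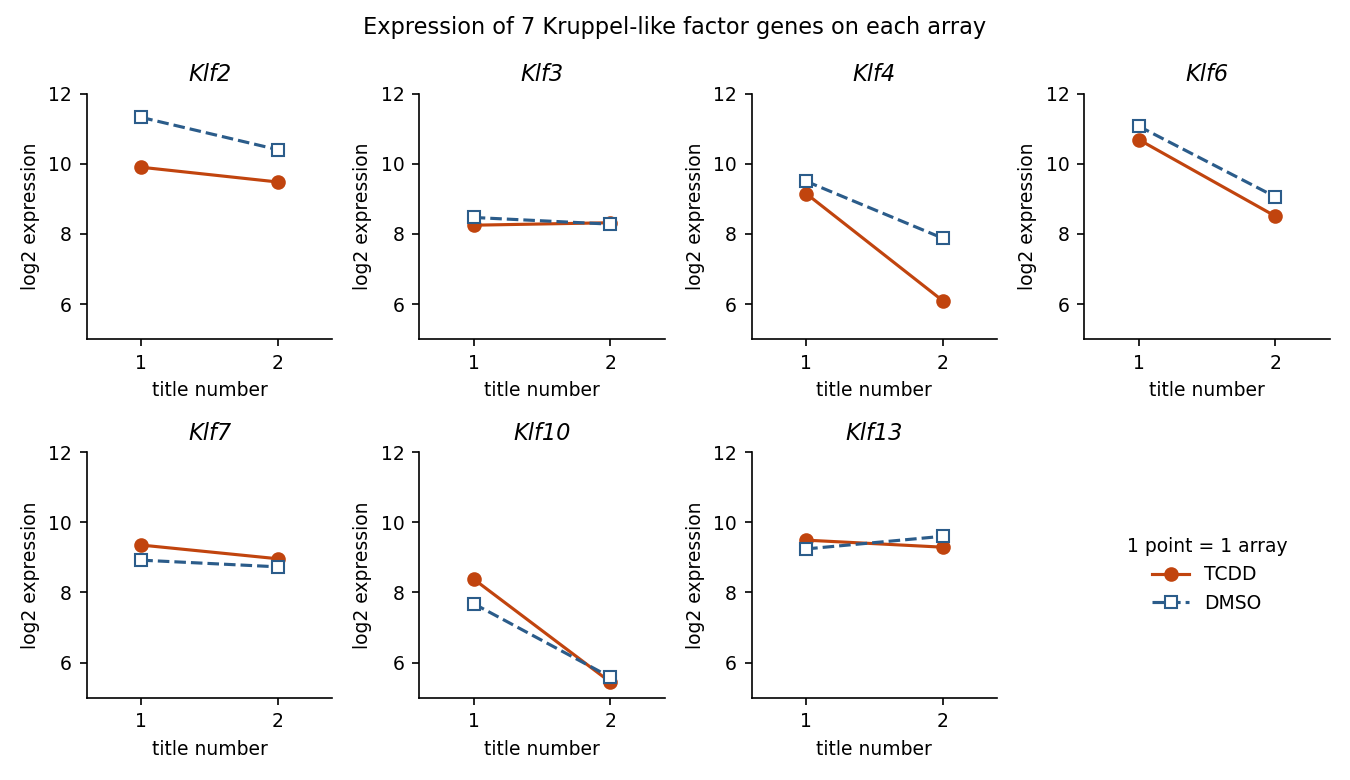
Log2 expression (vertical axes) of the main probe set of each gene by title number (horizontal axes), with 1 point for an array. Filled circles are TCDD and open squares are DMSO. Klf4, Klf6 and Klf10 are lower in number 2 than in number 1 in both treatments, Klf2 is lower with TCDD in both numbers, and Klf3, Klf7 and Klf13 stay within 0.62 of their own lowest value.

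Klf10, the TGF-beta-inducible early gene, showed the largest such difference among the members. It measured 8.38 in TCDD replicate 1 and 7.68 in DMSO replicate 1, against 5.45 and 5.59 in TCDD and DMSO replicate 2. The arrays numbered 2 were close to each other and below the median level of 6.01 of all probe sets, where RMA values do not separate weak expression from none. The difference between numbers was 2.51 in log2 signal (95% limits 1.86 and 3.16), with no fold given because the lower arrays may hold background only, and did not pass limma (unadjusted p = 0.0002285, adjusted p = 0.1989). With a variance trend and robust fitting it passed (adjusted p = 0.04451). It was 2.93 in the TCDD arrays and 2.09 in the DMSO arrays. For treatment TCDD minus DMSO was 0.28 (95% limits −2.79 and 3.35). Both a decrease and an increase of several-fold lay inside that interval, which counts the number difference as spread. With the number as a term the limits were −0.48 and 1.04 (limma adjusted p = 0.9942). Within number 1 TCDD was above DMSO by 0.70, and within number 2 it differed by −0.14. Leaving out an array sets unequal mixes of the numbers against each other. Without TCDD replicate 1 the treatment difference then turned to −1.185, and without DMSO replicate 2 to −0.765. Without TCDD replicate 2 it was 1.745 and without DMSO replicate 1 it was 1.325.

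Klf4, which encodes a factor that limits T cell division, had the widest spread of the 7 genes. It measured 9.15 and 9.50 in TCDD and DMSO replicate 1, and 6.10 and 7.88 in TCDD and DMSO replicate 2. TCDD replicate 2 was lowest by a wide margin, and the treatment groups overlapped. Its value of 6.10 is close to the median level of 6.01 of all probe sets, where RMA values do not separate weak expression from none. Differences that use this array are therefore uncertain in size. The difference between numbers was 2.335 (95% limits 0.77 and 3.90, limma adjusted p = 0.535). TCDD measured below DMSO within both numbers, by −0.35 within number 1 and by −1.78 within number 2. The treatment difference of −1.065 had limits of −4.01 and 1.88 (adjusted p = 0.9973). With the number as a term its limits were −2.29 and 0.16 (limma adjusted p = 0.9942). Leaving out an array sets unequal mixes of the numbers against each other, and the difference was then 0.46 without TCDD replicate 2, −2.59 without TCDD replicate 1, −0.255 without DMSO replicate 1 and −1.875 without DMSO replicate 2. The number difference was 1.445 without TCDD replicate 2. The second Klf4 probe set, with a mean of 5.45 against 8.16 for the main one, differed by 0.58 between numbers and by −0.16 between treatments.

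Klf6, which encodes an activator induced early by growth and stress signals, measured 10.69 and 11.07 in TCDD and DMSO replicate 1 and 8.51 and 9.06 in TCDD and DMSO replicate 2. The numbers were far apart and the treatments close within each number. The difference between numbers was 2.095 (95% limits 1.48 and 2.71), or 4.272-fold, with an unadjusted limma p of 0.0003997 and an adjusted p of 0.2512. TCDD measured below DMSO by −0.38 within number 1 and −0.55 within number 2. The treatment difference of −0.465 had limits of −3.0 and 2.07 (adjusted p = 0.9973), which count the number difference as spread. With the number as a term its limits were −0.80 and −0.13 (limma adjusted p = 0.9942). With an array left out, unequal mixes of the numbers are compared. The treatment difference was then 0.625 without TCDD replicate 2 and 0.54 without DMSO replicate 1. It was −1.555 and −1.47 without TCDD replicate 1 and DMSO replicate 2. The other Klf6 probe sets, with means of 7.38 and 6.07, differed by 0.36 and 0.80 between numbers with overlapping arrays, and by 0.09 and −0.88 between treatments. On the probe set at −0.88 the treatment groups did not overlap.

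Klf2 itself was less separated by number. It was higher in number 1 by 0.42 in the TCDD arrays and by 0.92 in the DMSO arrays, a mean difference of 0.67 with limits of −0.79 and 2.13 (limma adjusted p = 0.8274). The numbers overlapped, since TCDD replicate 1 lay below DMSO replicate 2. The limits of −0.79 and 2.13 count the treatment difference as spread. With treatment as a term they were 0.15 and 1.19 (limma adjusted p = 0.7419). Leaving out an array sets unequal mixes of the treatments against each other. The number difference was then −0.04 without DMSO replicate 1 and 0.21 without TCDD replicate 2. It was 1.38 without TCDD replicate 1 and 1.13 without DMSO replicate 2.

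The main probe sets of Klf3, Klf7 and Klf13 spanned 0.22, 0.62 and 0.36 over the 4 arrays, against a median of 0.29 over all genes. Other probe sets spanned up to 0.84 for Klf3 and 1.05 for Klf7. Klf3 encodes a repressor that recruits CtBP corepressors, and it measured 8.25 and 8.32 after TCDD and 8.47 and 8.28 after DMSO. The groups overlapped and TCDD minus DMSO was −0.09 (95% limits −0.40 and 0.22). On this probe set a change beyond 0.7573-fold or 1.166-fold lay outside the interval. Another Klf3 probe set, with a mean of 6.33, differed by −0.50 (95% limits −1.09 and 0.09), so the bound does not hold for every probe set. Klf13 encodes a factor first described as an activator of the chemokine gene Ccl5 in T cells. It measured 9.49 and 9.29 after TCDD and 9.24 and 9.60 after DMSO, and the groups differed by −0.03 (95% limits −0.47 and 0.41). TCDD was the higher array within number 1, by 0.25, and the lower within number 2, by −0.31. Klf7, another activator of the family, measured 9.35 and 8.96 after TCDD and 8.92 and 8.73 after DMSO. The TCDD arrays were the higher ones, by a narrow margin of 8.96 against 8.92. The difference was 0.33, with limits of −0.12 and 0.78 (limma unadjusted p = 0.1168, adjusted p = 0.9973), and was 0.135 without TCDD replicate 1 and 0.525 without TCDD replicate 2. Between numbers, Klf3 differed by 0.06, Klf7 by 0.29 and Klf13 by −0.08, with overlapping arrays for all 3 and adjusted p of 0.7837 or more.

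**Figure D2:**
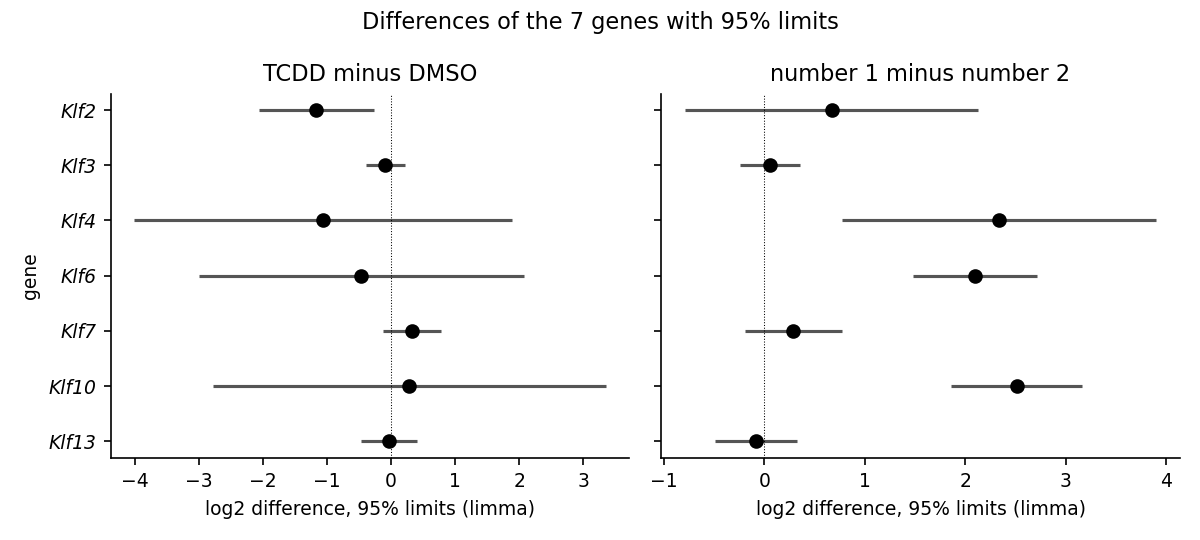
Differences (points, log2 units on the horizontal axes) with 95% limits from limma (lines) for each gene, TCDD minus DMSO on the left and number 1 minus number 2 on the right. On the left the interval of Klf2 lies below 0 and those of Klf4, Klf6 and Klf10 are the widest, while on the right the intervals of Klf4, Klf6 and Klf10 lie above 0, although none passed the adjustment over all probe sets.

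Over the 7 genes, both TCDD arrays were lower for 1 (Klf2), against 12% of all genes, and higher for 1 (Klf7), against 12.9%, and the groups overlapped for 5. Together that is near the 24.9% of all genes with separate treatment groups. Klf2, Klf4 and Klf6 measured lower with TCDD within both numbers, which 20.2% of all genes did, and Klf7 measured higher within both, which 22.6% did. The median treatment difference was −0.09 over the members and 0.01 over all genes, and the median number difference was 0.67 and −0.035. The limma test called 0 members in either comparison, and an unadjusted p under 0.05 was found for 1 member by treatment, against 1.94% of all probe sets, and for 3 by number, against 7.46%. Values of the main probe set spanned at least 1 log2 unit over the arrays for 4 members, against 4.26% of all genes.

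**Figure D3:**
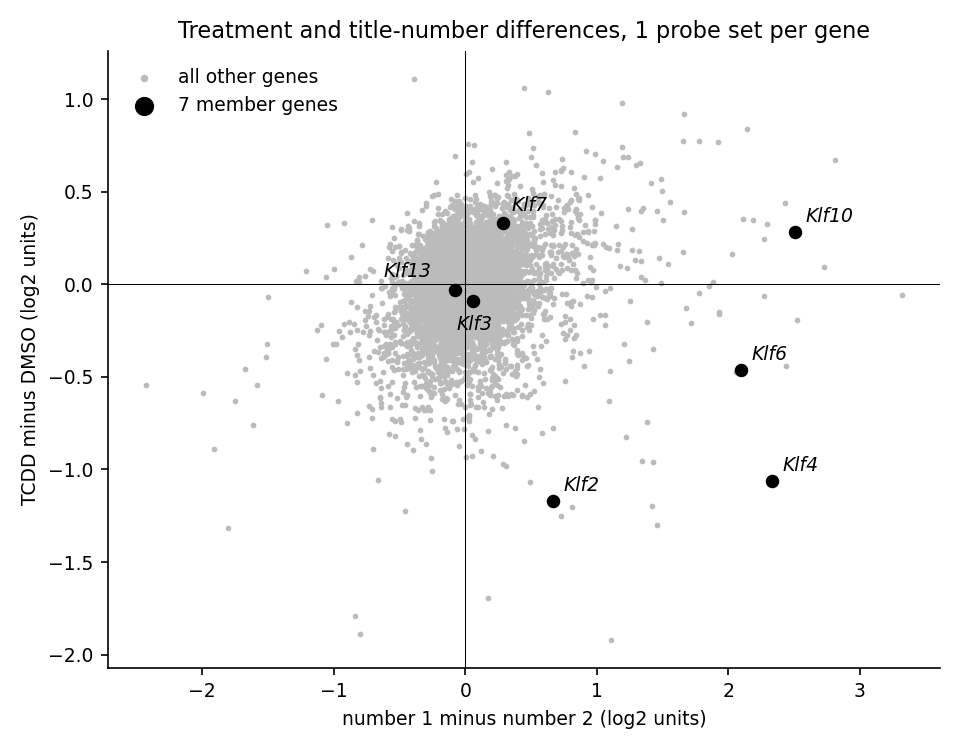
Each gene's number 1 minus number 2 difference (horizontal axis) against its TCDD minus DMSO difference (vertical axis), in log2 units, with 1 probe set for each gene. Grey points are the other genes and black points the 7 members: Klf4, Klf6 and Klf10 sit right of 2, Klf2 sits at −1.17 on the vertical axis, and Klf3, Klf7 and Klf13 lie inside the main cloud.

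The other probe sets of the members did not always follow the main one. Of 10 such probe sets, 9 had means above 6.01. For Klf7 the next probe set (mean 8.27) differed by 0.10 between treatments, and those with means of 6.89 and 6.66 differed by −0.205 and −0.28, the opposite sign to the main one. The Klf7 probe set at −0.28 was also lower in number 1 than in number 2, by −0.77, against 0.29 for the main one. For Klf3 the other probe sets (means 8.02 and 6.33) differed by −0.12 and −0.50 between treatments, with no overlap of the groups for the second. The first of these was lower in both arrays numbered 1, by −0.41, against 0.06 for the main one. For Klf13 the choice of main probe set was close, with means of 9.40 and 9.30. The second differed by 0.19 between treatments and was higher in both arrays numbered 1, by 0.28, against −0.08 for the main one, and the third (mean 6.42) by −0.14. With a gene's probe sets averaged, the treatment difference was −0.612 for Klf4, −0.237 for Klf3, −0.014 for Klf7 and 0.007 for Klf13, and the number difference was 1.458 for Klf4 and 1.085 for Klf6.

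**Figure D4:**
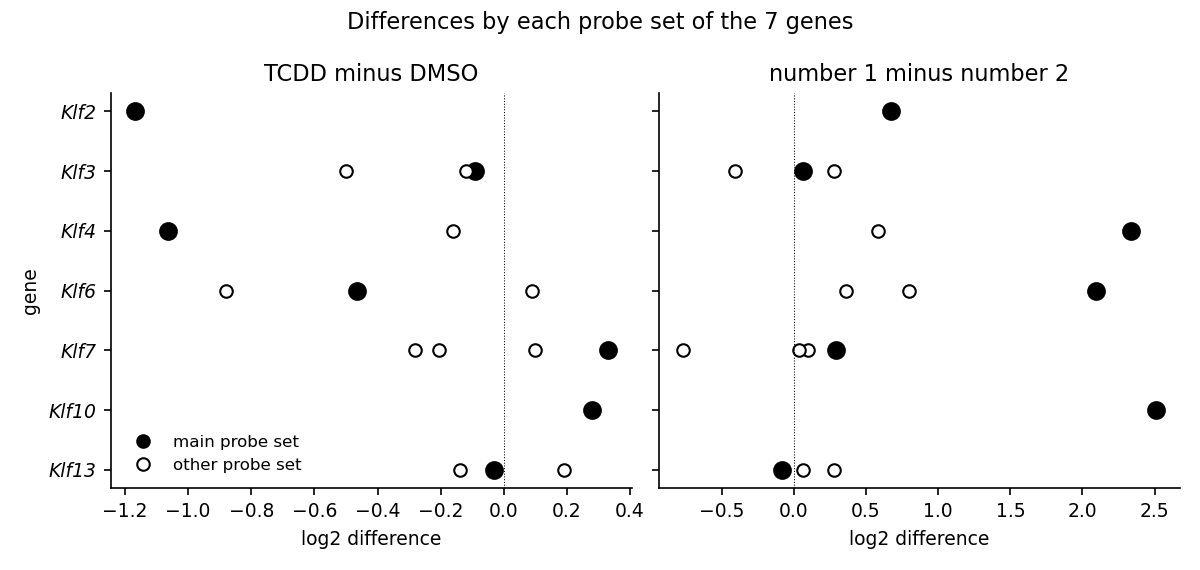
Differences (log2 units, horizontal axes) of all 17 probe sets of the 7 genes, TCDD minus DMSO on the left and number 1 minus number 2 on the right, with main probe sets filled and others open. The second Klf4 probe set and the 2 other Klf6 probe sets lie above 0 on the right, at 0.58, 0.36 and 0.80, closer to 0 than the main ones, and Klf7 probe sets fall on both sides of 0.

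The genes whose profile over the 4 arrays lay nearest to a member were taken from 7388 genes above the median level, by the Euclidean distance between profiles centred on their own mean. Nearest to Klf2 were Jun (distance 0.11 log2 units), which encodes an AP-1 subunit, Zfp36 (0.15), which encodes an mRNA decay factor, and the phosphatase gene Dusp2 (0.49). Jun measured 10.52 and 9.99 after TCDD and 11.97 and 11.04 after DMSO, and Zfp36 measured 9.19 and 8.59 against 10.61 and 9.58. Nearest to Klf10 were Ctla4 (0.29), which encodes an inhibitory receptor of T cells, the tubulin gene Tubb2a (0.31) and Vps37b (0.35), an ESCRT subunit gene. Nearest to Klf6 were the activation marker gene Cd83 (0.44), the polyamine synthesis gene Odc1 (0.49) and the stress factor gene Atf3 (0.53). Nearest to Klf4 were Nfkbiz (0.63), which encodes an atypical IkB protein, the antiproliferative gene Tob1 (0.66) and Klf6 (0.90). With 4 arrays such a match describes these libraries only.

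**Figure D5:**
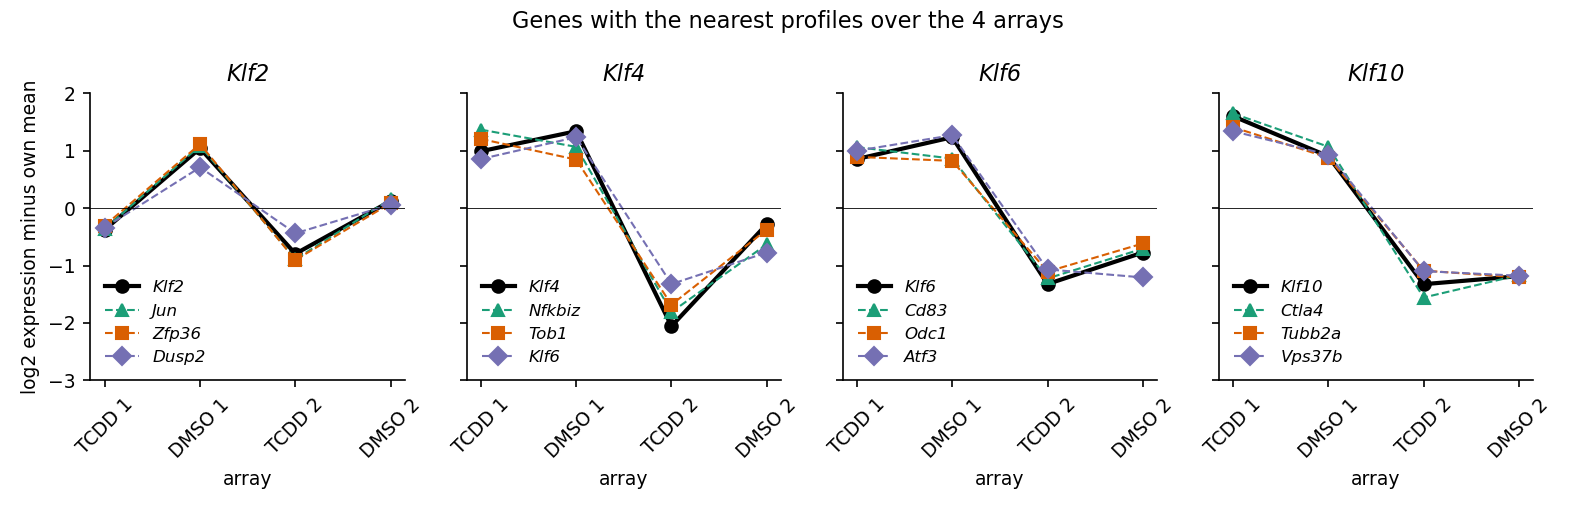
Log2 expression minus each gene's own mean over the arrays (vertical axis) for Klf2, Klf4, Klf6 and Klf10 (black) and the 3 genes nearest to each (dashed), by array. Jun and Zfp36 overlie Klf2 with distances of 0.11 and 0.15, and the genes beside Klf10 share its step between numbers 1 and 2.

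Other measures moved with the title number beside Klf4, Klf6 and Klf10. Shares of all genes here are 14% higher and 22.4% lower in number 1. Of 33 measured genes of an immediate early and dissociation list, 17 were higher in both arrays numbered 1 and 2 were lower, with a median number difference of 0.52 and 1 member past limma, Rgs1. The mean level of the list was 9.31 and 9.71 in TCDD and DMSO replicate 1 and 8.58 and 9.02 in TCDD and DMSO replicate 2. Rgs1, a regulator of G protein signalling, measured 9.94 in both arrays numbered 1 and 6.56 and 6.68 in TCDD and DMSO replicate 2 (limma adjusted p = 0.01768, and 0.4779 with treatment as a term), and Atf3 differed by 2.275. The 3′ minus 5′ signal of the Gapdh control probe sets, which reflects how far labelled RNA extends towards the 5′ end, was 5.35 and 5.27 in TCDD and DMSO replicate 1 and 4.56 and 4.30 in TCDD and DMSO replicate 2. For the Actb controls it was 3.61 and 3.69 against 3.34 and 3.52. Of 9 measured neutrophil markers 7 were lower in number 1. The list had mean levels of 5.77 and 5.73 in TCDD and DMSO replicate 1 and 6.03 and 6.70 in TCDD and DMSO replicate 2. S100a8 and S100a9 stood out in DMSO replicate 2, at 8.67 and 7.8, against 5.94 and 5.63 in TCDD replicate 2. The other neutrophil markers differed less by number, Ngp most, by −0.455. Monocyte and macrophage markers were lower in number 1 for 5 of 11, with mean levels of 5.64 to 5.74 in number 1 and 5.96 to 5.98 in number 2. B cell markers were higher in number 1 for 4 of 12 and lower for 4, with mean levels of 7.22 and 7.24 in TCDD and DMSO replicate 1 and 7.09 and 6.69 in TCDD and DMSO replicate 2. The 4 higher ones, chosen after their values were seen, were the MHC class II genes H2-Aa (1.155), H2-Ab1 (1.415) and H2-Eb1 (1.235) and the invariant chain gene Cd74 (1.49), all with their lowest value in DMSO replicate 2. The B cell genes Cd79b, Ms4a1, Blk and Cr2 were lower in number 1, by −0.49, −0.085, −0.28 and −0.05. Of these, Ms4a1, Blk and Cr2 had mean levels of 5.79, 5.68 and 5.26, below the median of 6.01. RMA values there do not separate weak expression from none. Mean levels were above that median for 7 of 12 B cell and 5 of 11 monocyte and macrophage markers. They were above it for 6 of 9 neutrophil and 5 of 7 dendritic cell markers. Dendritic cell markers were higher in number 1 for 2 of 7, Irf8 by 1.775 and Flt3 by 0.39, and lower for 0, with mean levels of 6.55 and 6.49 in TCDD and DMSO replicate 1 and 6.31 and 6.02 in TCDD and DMSO replicate 2. The other marker lists had these numbers of genes higher, then lower, in number 1: CD8 T cell 1 and 2 of 10, CD4 T cell 1 and 2 of 6, NK cell 0 and 3 of 6, erythroid 1 and 1 of 7, and stromal and endothelial 2 and 2 of 9. The part of these measures in the member differences was not tested.

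Part of the early-response list had the treatment pattern of Klf2. Both TCDD arrays were lower for 10 of the 33 genes, among them Fos, Jun, Junb, Jund, Dusp2, Zfp36 and Myc, and higher for 2, against 12% and 12.9% of all genes. Its median treatment difference was −0.275, with medians of −0.27 within number 1 and −0.18 within number 2, and limma called 0 of its genes. Fos, the AP-1 subunit, differed by −1.695, and Fosb, whose groups overlapped, by −1.30. The heat shock genes Hspa1a and Hspa1b, at −1.89 and −1.79, had their highest values of 9.14 and 11.94 in DMSO replicate 2. Of 10 measured CD8 T cell markers, both TCDD arrays were lower for 4 and higher for 0, with a median of −0.22 and mean levels of 9.01 to 9.23 after TCDD and 9.40 to 9.45 after DMSO. The remaining lists of other cell types had separate treatment groups in these numbers of genes, higher then lower: CD4 T cell 2 and 1 of 6, B cell 0 and 1 of 12, monocyte and macrophage 2 and 0 of 11, neutrophil 0 and 1 of 9, dendritic cell 3 and 2 of 7, NK cell 0 and 1 of 6, erythroid 0 and 1 of 7, and stromal and endothelial 2 and 0 of 9. Their part in the Klf2 difference was not tested.

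Genes known to depend on KLF2 or on its inducer FOXO1 were measured for 8 of 10 listed. After TCDD 1 was separately lower and 1 higher, close to the 12% and 12.9% of all genes, with a median of 0.017. S1pr1, the sphingosine 1-phosphate receptor that lets lymphocytes leave lymphoid organs and a direct KLF2 target, measured 7.75 and 7.25 after TCDD and 7.88 and 7.93 after DMSO. Its groups did not overlap and differed by −0.405 (limma adjusted p = 0.9973). The integrin gene Itgae, at 8.52 and 8.70 against 8.35 and 8.18, differed by 0.345 (adjusted p = 0.9973), and the cell cycle inhibitor genes Cdkn1b and Cdkn1a differed by −0.26 and 0.21 with overlapping groups. Ccr7, the chemokine receptor for lymph node entry, differed mostly by number, at 10.02 and 9.79 in TCDD and DMSO replicate 1 against 8.52 and 7.97 in TCDD and DMSO replicate 2.

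In the lists that follow, the shares of all genes with separate treatment groups are again 12.9% higher and 12% lower after TCDD. Among 10 measured inducers of Klf2 and Klf4, 1 was separately higher after TCDD and 0 lower, with a median of −0.04. The transcription factor gene Foxo1 differed by −0.535 with overlapping groups, at 9.78 and 9.25 after TCDD and 9.66 and 10.44 after DMSO. Foxo3 differed by 0.165, the MEF2 factor gene Mef2d by 0.165 and the kinase gene Map3k3 by 0.11. Of 14 measured KLF cofactor and ubiquitin ligase genes, 2 were separately higher and 2 lower after TCDD, with a median of −0.03. The deacetylase genes Hdac1 and Hdac2 went opposite ways, at 0.465 and −0.43, the acetyltransferase gene Kat2b differed by −0.38, and Wwp1, which encodes a ubiquitin ligase for KLF2, by 0.20. Hdac3 and Sin3a, a corepressor gene, were higher in number 1 by 0.30 and 0.415. Of 10 measured TGF-beta pathway genes, 1 was separately higher and 3 lower after TCDD, with a median of −0.13. The signal transducer genes Smad4 and Smad2 differed by 0.345 and −0.295, and the inhibitor genes Smad7 and Skil by −0.24 and 0.325. Skil was higher in number 1 by 0.985.

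Of 12 measured T cell quiescence genes, 1 was separately higher after TCDD and 0 lower, against 12.9% and 12% of all genes, with a median of −0.125. That gene was Foxp1, at 11.09 and 11.04 after TCDD and 10.47 and 10.74 after DMSO, a difference of 0.46. Bach2 and Ets1, which encode transcription factors of naive lymphocytes, differed by −0.37 and −0.345, and Btg1 by −0.295, all with overlapping groups. By number, 3 of the 12 were higher and 3 lower in the arrays numbered 1, against 14% and 22.4% of all genes. Tob1 was higher by 2.055 and Btg1 by 0.755. The limma test called 0 genes of the target, inducer, cofactor, TGF-beta and quiescence lists in either comparison. At an unadjusted p under 0.05 there were 1, 0, 1, 2 and 1 of them for treatment, where 1.94% of all probe sets had one, and 2, 1, 2, 2 and 2 for number, where 7.46% did.

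Of the family members outside the 7, 7 of 10 were measured (Klf1, Klf5, Klf9, Klf12, Klf15, Klf16 and Klf17), and only Klf1 and Klf9 had mean levels above 6.01. Their treatment groups overlapped for all 7, with a median difference of 0.075. Klf9, which is known to be induced by glucocorticoids, measured 8.88 and 8.61 in TCDD and DMSO replicate 1 and 7.71 and 7.59 in TCDD and DMSO replicate 2. Its number difference was 1.095 (limma adjusted p = 0.2588), and another of its probe sets measured 9.28 and 8.68 against 6.94 and 5.83. Klf9 thus shared the order of arrays by number seen for Klf4, Klf6 and Klf10. Its treatment difference was 0.195 on the main probe set and 0.855 on the other one given, with overlapping groups on both. On a further Klf9 probe set, with a mean of 6.94, it was −0.11. Klf1, the erythroid factor, differed by 0.145 between treatments and 0.065 between numbers. Of the related SP factors, 6 of 9 were measured, 0 had separate treatment groups, and 3 were lower in number 1 against 22.4% of all genes, Sp1 by −0.985, Sp4 by −0.40 and Sp6 by −0.055. Sp3 differed by 0.225 with overlapping arrays. Sp1 measured 8.21 and 8.28 in TCDD and DMSO replicate 1 against 8.94 and 9.52 in TCDD and DMSO replicate 2, the opposite order to Klf4, Klf6 and Klf10.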

How the data were processed

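The deposited table holds 1 log2 expression value per probe set for 4 Affymetrix arrays. The authors made these log2 values with RMA, per the submitters' processing notes, from amplified RNA, in a version not stated here. The values themselves, 3.09 to 14.62, gave the scale. Of 22690 probe sets, 64 controls were left out, which leaves 22626: 20380 had 1 gene symbol, 691 several and 1555 none. Symbols were updated through Entrez identifiers in RefSeq's GRCm38.p6 table.

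Both comparisons used limma 3.58.1 in R 4.3.3 (lmFit, eBayes, no filter, no covariate), with p-values adjusted over all probe sets (Benjamini-Hochberg), a threshold of 0.05 and 95% limits. An exact permutation test of 2 arrays against 2 cannot go below a two-sided p of 0.3333, so none was run. On simulated data with 22626 probe sets and 2 arrays against 2, limma called 29.4% of 2-fold, 69.4% of 4-fold and 85.2% of 8-fold changes. The simulated noise was normal and independent between arrays, with the variances within treatments shuffled over probe sets. It held no difference shared by arrays of one number, unlike the deposited arrays. These shares therefore do not give the power of the treatment test on these arrays.

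The members and lists were chosen with earlier results of these data known. Besides the members, the rule named up to 4 genes of a list above the median level by treatment difference, up to 2 by number difference, and the 3 nearest profiles. Junb, Jund and Myc, and the search for the MEF2 element, were added after the values or windows were seen. So were the genes named only as cell type markers. The number of arrays limits the precision.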

Additional observations from a re-analysis of the deposited data

How the results depend on the processing

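Each of 14 member differences (7 genes, by treatment and by number) was recomputed under 13 alternatives. Of these 182 values, 164 kept their direction and their side of the threshold, 17 changed sign and 1 passed only under the alternative. That was Klf10 by number (adjusted p = 0.04451 with a variance trend and robust fitting), so that 1 member was called there. For treatment, 0 probe sets and 0 members were called under every alternative run, with 116 to 1079 probe sets at an unadjusted p under 0.05. For number, the 1 call became 11 with trend and robust fitting, 7 for means of a gene's probe sets, and 0 with the replicate block and with each array left out.

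As arrays were left out, the treatment difference ran from −1.63 to −0.71 for Klf2, −0.185 to 0.005 for Klf3, −2.59 to 0.46 for Klf4, −1.555 to 0.625 for Klf6, 0.135 to 0.525 for Klf7, −1.185 to 1.745 for Klf10 and −0.21 to 0.15 for Klf13. The number difference ran from −0.04 to 1.38 for Klf2, −0.05 to 0.17 for Klf3, 1.445 to 3.225 for Klf4, 1.82 to 2.37 for Klf6, 0.075 to 0.505 for Klf7, 2.16 to 2.86 for Klf10 and −0.235 to 0.075 for Klf13. A left-out array leaves 1 in its group, which is assumed to vary like the other group. It also sets unequal mixes of the numbers, or of the treatments, against each other. These ranges, and the sign changes within them, therefore hold part of the other difference. For means of a gene's probe sets, treatment differences turned to −0.014 for Klf7 and 0.007 for Klf13, and number differences to −0.023 for Klf3, −0.086 for Klf7 and 0.087 for Klf13. The cause of these changes was not tested.

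Arrays of one number share only that number in the labels. Over probe sets, the deviations of TCDD and DMSO replicate 1 from their group means had a correlation of 0.234. With the number as a replicate block, 0 probe sets were called for treatment (612 at an unadjusted p under 0.05). The limits became −1.69 and −0.65 for Klf2 (adjusted p = 0.9942) and −0.80 and −0.13 for Klf6 (adjusted p = 0.9942). They were −2.29 and 0.16 for Klf4 and −0.48 and 1.04 for Klf10 (adjusted p = 0.9942 for each). With treatment as a term beside the number, 0 probe sets were called for number (lowest adjusted p = 0.4779). In these fits an unadjusted p under 0.05 was found for 2 members by treatment and for 4 by number, and for 612 and 1361 of 22626 probe sets.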
